A study of Mus musculus with 2 samples.

Results

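Immune checkpoint ligands and receptors were taken as 9 genes by symbol, of 31053 genes in the count matrix: the ligands Cd274, Pdcd1lg2, Vsir and Lgals9, the receptor Havcr2, the pair Sirpa and Cd47, and the inhibitory receptors of T cells Pdcd1 and Ctla4. Their levels were read in tumor-associated neutrophils (TANs) and in the cells that accompanied them through the sort. CD11b+Ly6G+ cells were sorted from subcutaneous tumors of Lewis lung carcinoma (LLC), a mouse lung carcinoma line of C57BL/6 origin, and 8 tumors were pooled into 1 library per genotype. Smad3-WT mice carried intact Smad3, and Smad3-KO mice carried a germline allele that lacks exon 8 and has a disrupted exon 7, so that host cells of every type, but not the inoculated LLC cells, lacked the intact gene. Mice of both genotypes were on a C57BL/6J background, of both sexes and 8 to 12 weeks old, and all carried LLC tumors. The barcodes of a library were recognized by an arithmetic identity with the deposited averages, and reads of a 5′ kit do not check the deleted exons.

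Checkpoint pathways restrain T cells and phagocytes. PD-L1 (Cd274) and PD-L2 (Pdcd1lg2) bind PD-1 (Pdcd1) on activated T cells, CTLA-4 (Ctla4) competes with CD28 for CD80 and CD86, and galectin-9 (Lgals9) is a ligand of TIM-3 (Havcr2). VISTA (Vsir) is carried mainly by myeloid cells and naive T cells, and CD47 on a target cell engages SIRPα (Sirpa) on neutrophils and macrophages and restrains phagocytosis. PD-L1 on myeloid cells of a tumor is known to be induced by interferon-γ and other inflammatory signals.

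The genes of the 2 PD-1 ligands are neighbours on mouse chromosome 19 in the mm10 build of the deposited data, which is GRCm38. In GENCODE vM21, Cd274 (ENSMUSG00000016496) spans chr19:29367455-29388095 and Pdcd1lg2 (ENSMUSG00000016498) chr19:29410919-29471161, both on the plus strand and 22.8 kb apart. Their upstream windows are shown because one ligand differed between the libraries in neutrophil-like cells far more than the other, and because Smad3 binds DNA at the short motif CAGAC. Each window holds the 250 bases before the RefSeq start of the gene (GRCm38.p6, plus strand, chr19:29367188-29367437 for Cd274 and chr19:29410669-29410918 for Pdcd1lg2), and capitals mark every match of the 4 motifs searched.
Cd274: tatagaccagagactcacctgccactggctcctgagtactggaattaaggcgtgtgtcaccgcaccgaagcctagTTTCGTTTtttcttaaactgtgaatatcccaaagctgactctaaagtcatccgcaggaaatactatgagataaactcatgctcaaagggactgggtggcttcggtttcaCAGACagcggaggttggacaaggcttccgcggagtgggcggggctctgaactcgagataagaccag
Pdcd1lg2: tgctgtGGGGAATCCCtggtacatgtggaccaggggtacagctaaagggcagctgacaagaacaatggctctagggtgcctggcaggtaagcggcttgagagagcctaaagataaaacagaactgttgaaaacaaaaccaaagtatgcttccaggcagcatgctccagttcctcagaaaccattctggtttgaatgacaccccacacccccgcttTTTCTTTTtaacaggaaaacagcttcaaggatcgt
The Smad motif CAGAC, searched on both strands as were the others, occurred 1 time in the Cd274 window, at 66 bases before the start, and 0 times in that of Pdcd1lg2. CAGAC also occurred in the windows of Vsir, Havcr2 and Pdcd1, and not in those of Lgals9, Cd47 and Ctla4. This short motif lay in 42.2% of the 32851 such windows of the RefSeq table. The IRF core AANNGAAA, held by 21.3% of windows, was matched on the minus strand in both, at 175 bases before the start of Cd274 and at 35 before that of Pdcd1lg2. The NF-kB consensus, held by 7.25%, was matched at 1 place of the Pdcd1lg2 window, 244 bases before the start on both strands, and not in that of Cd274, and the gamma-activated site TTCNNNGAA, held by 7.02%, was found in neither. A match describes the letters and does not show that a factor binds there.

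Quality filtering left 3520 cells in the Smad3-WT library (12176201 UMIs) and 2433 in the Smad3-KO library (4146792 UMIs). Cells were clustered without the 9 genes and without the pathway genes named here, and clusters took names from marker genes. Neutrophil-like cells numbered 1809 in Smad3-WT and 1068 in Smad3-KO, with medians of 739 and 1017 UMIs per cell. The sort also held macrophage or monocyte-like cells (950 and 94), dendritic-like cells (250 and 135), T cell-like cells (59 and 466), B cell-like cells (3 and 570), LLC carcinoma-like cells (397 and 32) and fibroblast-like cells (52 and 68). The labelled neutrophil identity thus covered 51.4% and 43.9% of cells. A total of 73 barcode sequences occurred in both libraries, and without them the Cd274 ratio given below was 6.58 over all cells and 4.12 in neutrophil-like cells. Levels are UMIs of a gene scaled to the summed UMIs of the same cells (CPM), confidence intervals (CI) are exact at 95% and cover counting error only, and a ratio is the Smad3-KO level divided by the Smad3-WT level. With 1 library per genotype no replicate error exists, no p-value is given, and a difference between the libraries cannot be told apart from a difference between genotypes.

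Cd274 showed the largest ratio of the 9 genes over all cells. In neutrophil-like cells, Cd274 had the largest ratio of the 7 genes with at least 20 UMIs over both libraries. Its level over all cells was 132 CPM (CI 125 to 138) for Smad3-WT against 831 CPM (CI 803 to 859) for Smad3-KO, which gave a ratio of 6.31 (CI 5.94 to 6.70). In neutrophil-like cells the levels were 515 CPM (CI 479.9 to 551) and 2123 CPM (CI 2045 to 2203), a ratio of 4.12 (CI 3.81 to 4.47). The class differed in its make-up, since most Smad3-WT cells lay in cluster 1 and most Smad3-KO cells in cluster 2, and with the shared clusters weighted alike in both libraries the ratio was 1.60. A cluster held mostly by 1 library may reflect that library rather than a kind of cell.
Detection went the same way. At least 1 Cd274 UMI was found in 523 Smad3-WT neutrophil-like cells (28.9%, CI 26.8 to 31.1) and in 763 Smad3-KO cells (71.4%, CI 68.6 to 74.1), and after every cell was thinned to 500 UMIs the shares were 19.8% and 54.8%. Cells with 4 or more UMIs were 1.77% of the class in Smad3-WT and 29.1% in Smad3-KO, and the highest cell held 8 and 24 UMIs. Other classes, to which free RNA of neutrophils can add UMIs, gave lower Smad3-KO shares of 11.6% in T cell-like (median 1348 UMIs), 17.0% in B cell-like (1244.5 UMIs), 17.6% in fibroblast-like, 43.0% in dendritic-like (3412 UMIs) and 44.7% in macrophage or monocyte-like cells (1879 UMIs).

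**Figure D1:**
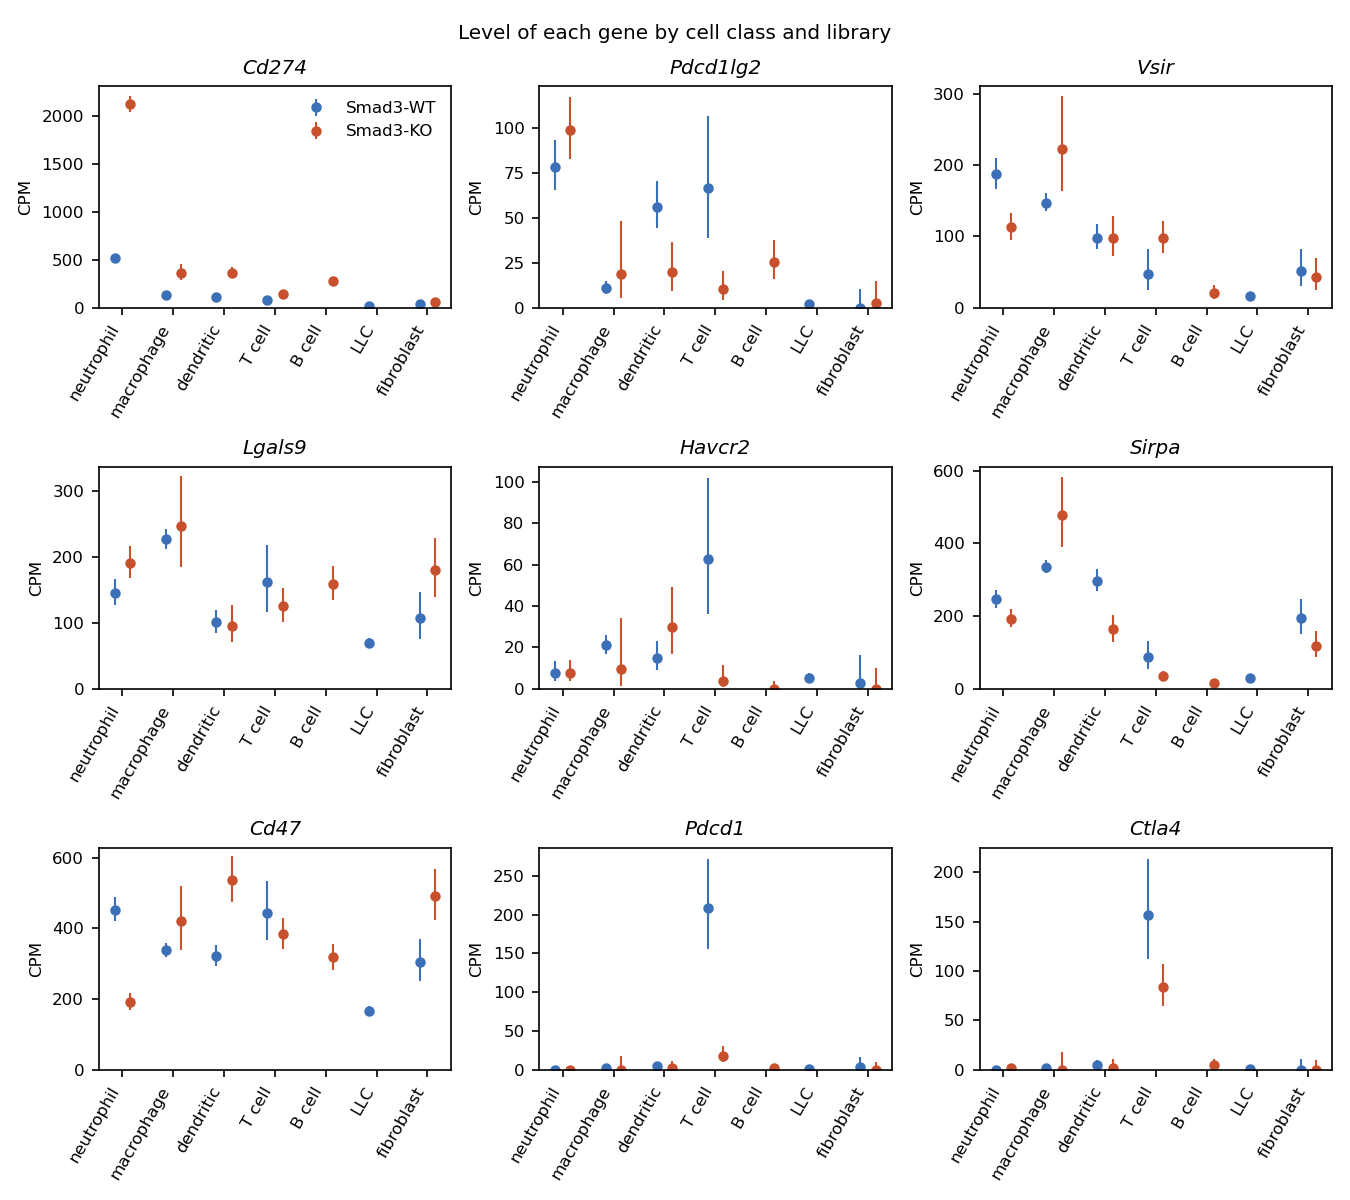
Level of each of the 9 genes (CPM, linear axes that start at 0) in each cell class of the Smad3-WT library (blue) and the Smad3-KO library (orange). Points are sums over the cells of classes with at least 50 cells and bars are exact 95% Poisson intervals for counting error. Cd274 reached 2123 CPM in Smad3-KO neutrophil-like cells, while Pdcd1 and Ctla4 stood out in T cell-like cells alone.

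Within neutrophil-like cells, the level of Cd274 followed the cluster. Cluster 1, led by Mmp9, G0s2, Cxcr2 and Il1r2, held 1505 Smad3-WT and 140 Smad3-KO cells, and Cd274 stood there at 405 and 328 CPM, a ratio of 0.810 whose CI (0.555 to 1.15) includes 1. Cluster 8, led by interferon-induced Ifit genes, held 271 and 22 cells and had 1044 and 1273 CPM, a ratio of 1.22 (CI 0.722 to 1.95). Neither of these clusters showed a difference beyond counting error.
Cluster 2 was led by Stfa2, Il1a, Csf3, Tnfaip3 and Lcn2, and it held 33 Smad3-WT and 840 Smad3-KO cells. Cd274 stood there at 1288 CPM (CI 881 to 1819) in Smad3-WT and at 2588 CPM (CI 2491 to 2688) in Smad3-KO, a ratio of 2.01 (CI 1.42 to 2.94). The 33 Smad3-WT cells of this cluster were above the level of their own library in cluster 1, and 57.6% of them held a Cd274 UMI. Cluster 12, led by the granule genes Camp, Ngp and Ltf of immature neutrophils, held 66 Smad3-KO cells and no Smad3-WT cells and had 363 CPM (CI 275 to 469), near the level of cluster 1.

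**Figure D2:**
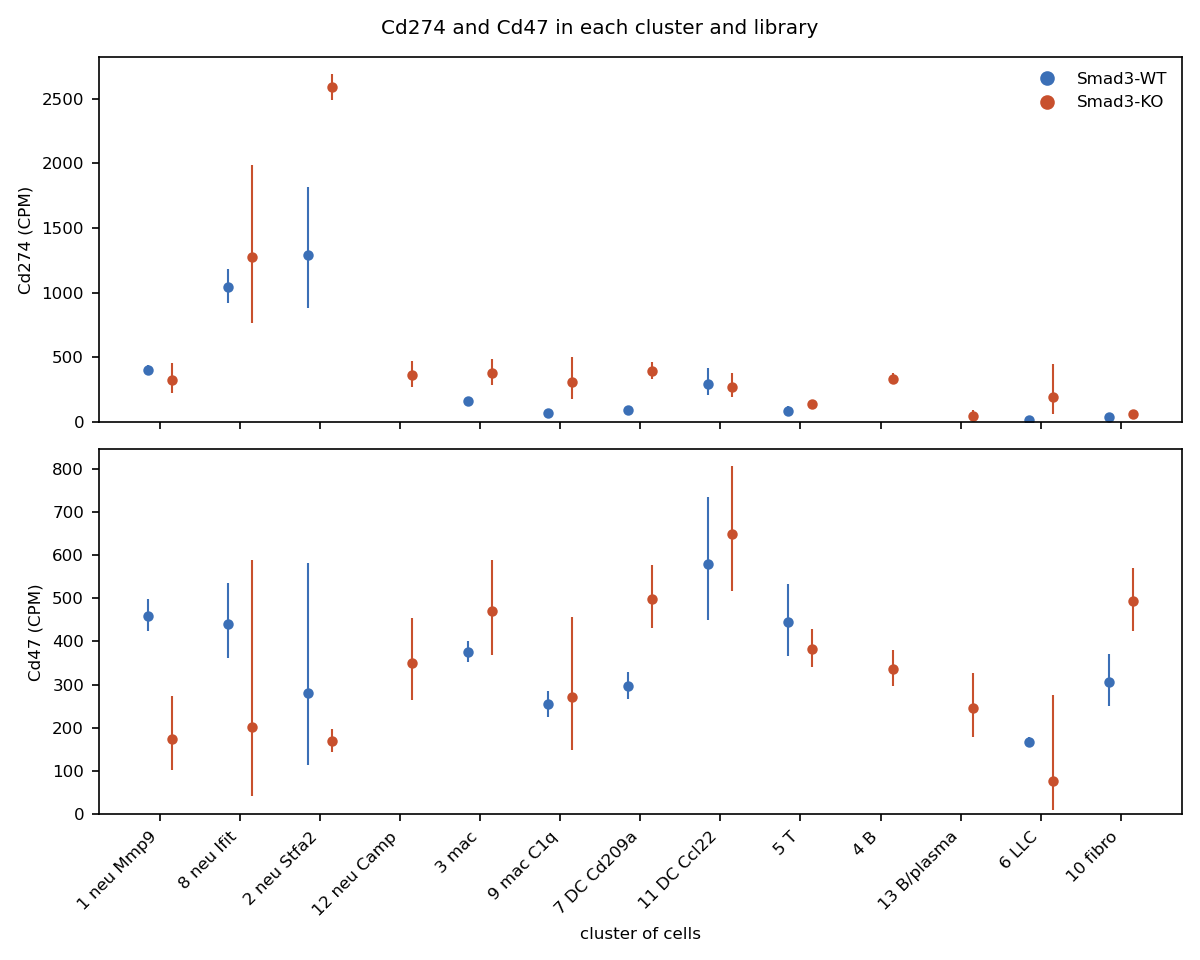
Levels (CPM, linear axes) of Cd274 (top) and Cd47 (bottom) in each of 13 clusters, for libraries with at least 20 cells in the cluster. Points are sums over cells, bars are exact 95% Poisson intervals, and cluster labels give the class and a leading gene. Cd274 in cluster 2 was 1288 CPM in Smad3-WT and 2588 CPM in Smad3-KO, while cluster 1 had 405 and 328 CPM, and Cd47 in cluster 1 had 459 and 174 CPM.

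Outside neutrophil-like cells, Cd274 was lower in every class. In the Smad3-WT library the order was macrophage or monocyte-like (137 CPM, CI 125 to 149), dendritic-like (112 CPM, CI 94.5 to 131), T cell-like (82.5 CPM, CI 51.1 to 126), fibroblast-like (40.4 CPM) and LLC carcinoma-like cells (20.1 CPM, CI 16.3 to 24.4). The confidence intervals of each pair of neighbours in this order overlapped. In the Smad3-KO library dendritic-like (362 CPM, CI 312 to 419) and macrophage or monocyte-like cells (360.4 CPM, CI 284 to 451) could not be separated, and B cell-like (280.4 CPM), T cell-like (144 CPM) and fibroblast-like cells (59.2 CPM) followed. The ratio was 2.64 (CI 2.04 to 3.36) in macrophage or monocyte-like cells, 3.24 (CI 2.60 to 4.06) in dendritic-like cells and 1.74 (CI 1.08 to 2.92) in T cell-like cells. The 2 dendritic-like clusters had ratios of 4.19 (CI 3.26 to 5.40) in cluster 7, led by Cd209a and Clec9a, and 0.918 (CI 0.558 to 1.51) in cluster 11, led by Il12b and Ccl22, and their difference was not tested.
UMIs of neutrophil markers were present in these classes. Whether they were free RNA, came from doublets or were the cells' own RNA was not tested. Droplets of other classes held the 10 neutrophil markers at a fraction of their neutrophil-like level, and that fraction was compared with the same fraction for Cd274. In Smad3-KO macrophage or monocyte-like cells the markers ranged from 0 to 0.219 with a median of 0.0711, and Cd274 stood at 0.170. In dendritic-like cells the markers ranged from 0.0214 to 0.184 with a median of 0.0890, and Cd274 stood at 0.171. In T cell-like cells they ranged from 0.0209 to 0.0809 with a median of 0.0456, and Cd274 stood at 0.0677. Cd274 thus lay inside the range of the neutrophil markers, but above their median, in these Smad3-KO classes. Which part of it was free RNA was not tested, and the levels in these classes are not read as expression.
In the Smad3-WT library Cd274 lay above the range of the neutrophil markers in 4 of 5 classes. It stood at 0.266 of the neutrophil-like level in macrophage or monocyte-like cells, where the highest marker was at 0.105, at 0.217 in dendritic-like cells, where the highest was at 0.169, and at 0.160 in T cell-like cells, where the highest was at 0.0743. In fibroblast-like cells it stood at 0.0785, where the highest was at 0.0623. In LLC carcinoma-like cells it lay inside the range, at 0.0390 between 0.0108 and 0.0457, and the level there is not read as expression. Against the 12 macrophage or monocyte markers as the source, Cd274 of Smad3-WT dendritic-like cells stood at 0.817 (markers 0.123 to 0.911, median 0.3795). It stood at 0.604 in T cell-like cells (0.0204 to 1.27, median 0.0978) and at 0.296 in fibroblast-like cells (0.119 to 0.434, median 0.338). These values lay inside the range, while LLC carcinoma-like cells, at 0.147, lay above the highest marker at 0.103. A marker at 1.27 is higher in T cell-like cells than in its own class, so that range does not measure free RNA alone. Cd274 of Smad3-KO B cell-like cells stood above the neutrophil markers, at 0.132 against a highest value of 0.104. The part of free RNA in the ratios of these classes was not tested.

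**Figure D3:**
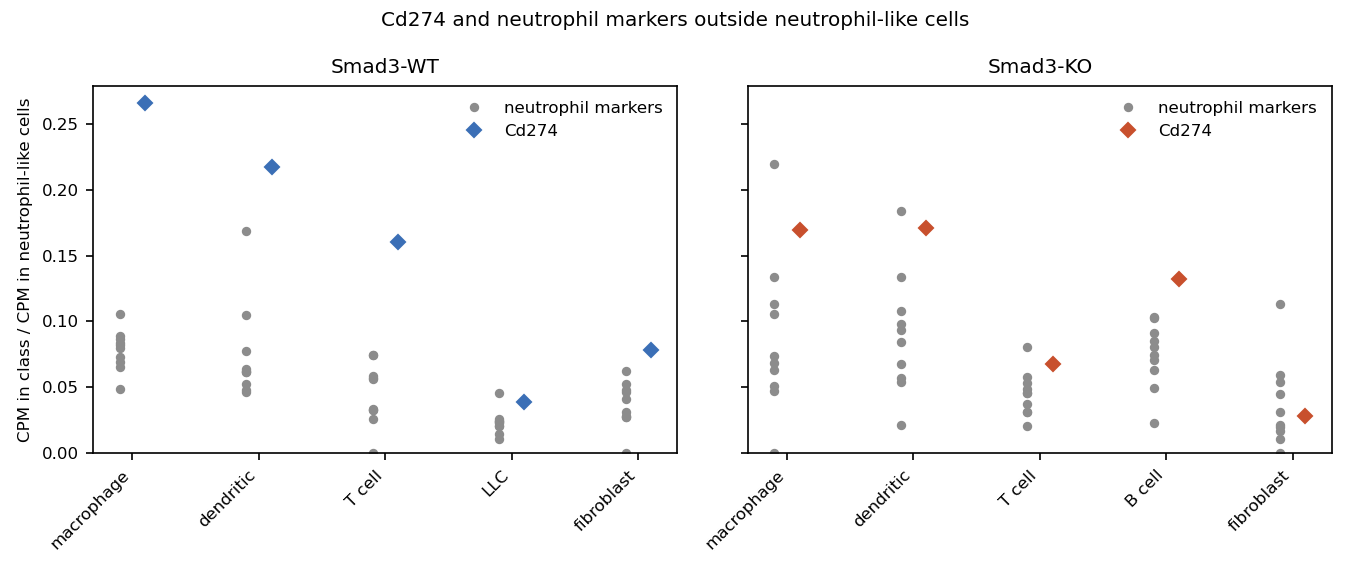
Level of Cd274 (diamonds) and of each of 10 neutrophil markers (grey points) in a class, divided by its level in neutrophil-like cells of the same library (linear axis, no unit), for Smad3-WT (left) and Smad3-KO (right). For macrophage or monocyte-like cells, Cd274 lay above every marker in Smad3-WT, at 0.266 against at most 0.105, and inside the range of the markers in Smad3-KO, at 0.170 against at most 0.219.

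Neutrophil-like cells held 812 of 1604 Cd274 UMIs in the Smad3-WT library (50.6%, CI 48.1 to 53.1) and 2783 of 3446 in the Smad3-KO library (80.8%, CI 79.4 to 82.1). Macrophage or monocyte-like cells held 31.7% and 2.21%. The make-up of the sort therefore entered the ratio over all cells. Over the 5 classes with at least 50 cells in both libraries, the ratio was 4.82 with each library's own shares of UMIs by class and 3.48 with the Smad3-WT shares in both.

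**Figure D4:**
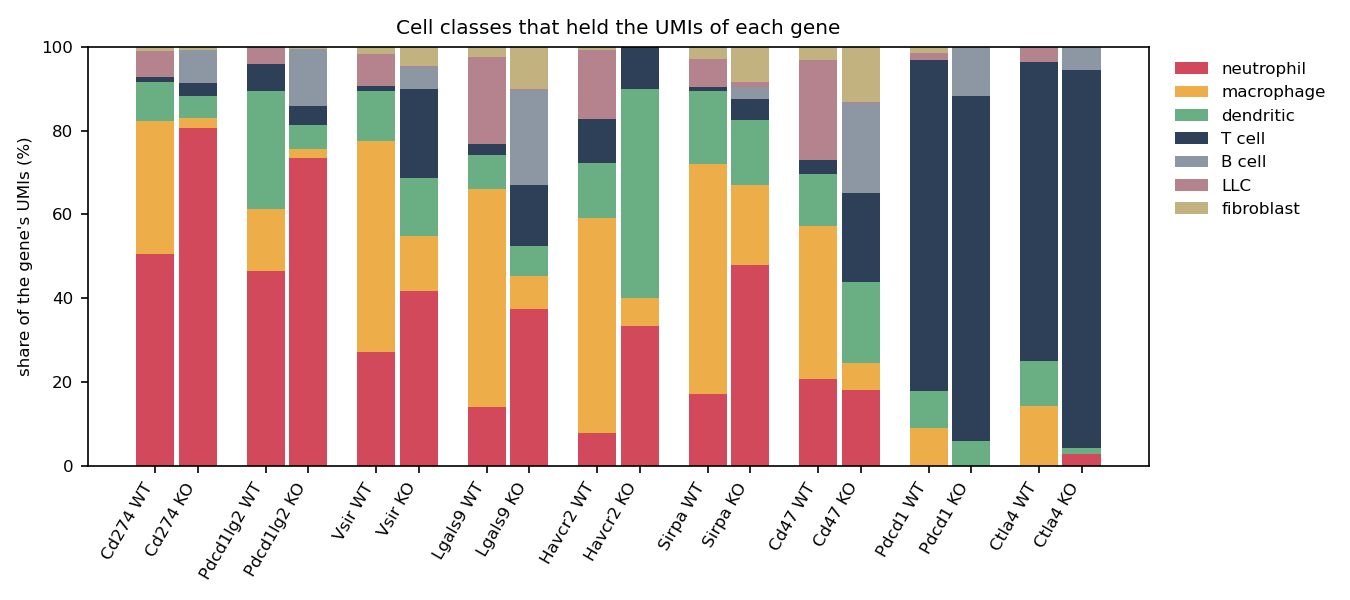
Share of the UMIs of each gene (%, stacked to 100) that lay in each cell class, for each gene in the Smad3-WT (WT) and Smad3-KO (KO) library. Neutrophil-like cells held 50.6% and 80.8% of Cd274 UMIs, while T cell-like cells held most UMIs of Pdcd1 and Ctla4 in both libraries.

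Pdcd1lg2, the second PD-1 ligand, differed less between the libraries than its neighbour, both over all cells and in neutrophil-like cells. Over all cells the ratio of Pdcd1lg2 was 1.95 (CI 1.60 to 2.36). In neutrophil-like cells it had 124 UMIs (78.6 CPM, CI 65.4 to 93.7) in Smad3-WT and 130 UMIs (99.2 CPM, CI 82.8 to 118) in Smad3-KO, a ratio of 1.26 whose CI (0.979 to 1.63) includes 1. The median gene of the class had a ratio of 0.793. In cluster 2, where Cd274 was highest, Pdcd1lg2 stood at 121 CPM in both libraries, on 3 UMIs in Smad3-WT. Like Cd274, it was lower in cluster 1, at 68.3 CPM in Smad3-WT and 29.0 CPM in Smad3-KO, on 3 UMIs in the latter. In dendritic-like cells, a known site of PD-L2, it was lower in Smad3-KO, at 56.2 CPM (CI 44.2 to 70.5) and 19.9 CPM (CI 9.55 to 36.6), a ratio of 0.354 (CI 0.163 to 0.688). This held in both dendritic-like clusters, with ratios of 0.266 (CI 0.0835 to 0.656) in cluster 7 and 0.328 (CI 0.0924 to 0.963) in cluster 11, on 5 Smad3-KO UMIs each. In T cell-like cells it had 17 and 8 UMIs, a ratio of 0.155 (CI 0.0579 to 0.379). Cluster 7 met 3 macrophage or monocyte markers beside 4 dendritic markers.

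Lgals9 differed by less than 2-fold in neutrophil-like cells, and its receptor Havcr2 was too rare there to compare. Lgals9 (ENSMUSG00000001123, chr11:78962974-78984946, minus strand) was found in every class, at 146 and 191 CPM in neutrophil-like cells, a ratio of 1.31 (CI 1.09 to 1.57), and at 227 and 247 CPM in macrophage or monocyte-like cells, a ratio of 1.09 (CI 0.806 to 1.44). In neutrophil-like cells it was highest in the interferon-gene cluster 8 of Smad3-WT, at 357 CPM against 106 CPM in cluster 1. Havcr2 (ENSMUSG00000020399, chr11:46454935-46481255, plus strand) had 12 and 10 UMIs in neutrophil-like cells (ratio CI 0.388 to 2.53), so depth did not allow a difference to be detected. Its Smad3-WT level was 20.9 CPM (CI 16.6 to 26.1) in macrophage or monocyte-like cells and 62.9 CPM (CI 36.0 to 102) in T cell-like cells.

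Vsir (ENSMUSG00000020101, chr10:60346851-60372684, plus strand) was lower in Smad3-KO neutrophil-like cells, at 187 CPM (CI 166 to 210) and 113 CPM (CI 95.4 to 133), a ratio of 0.604 (CI 0.492 to 0.738). The median gene of the class had a ratio of 0.793, and with clusters weighted alike the ratio of Vsir was 0.834. Within cluster 1 the ratio was 0.855 (CI 0.490 to 1.40) and within cluster 2 it was 0.665 (CI 0.220 to 3.29), so that counting error covers 1 in both. In macrophage or monocyte-like cells the level was higher in Smad3-KO, at 147 and 223 CPM, a ratio of 1.51 (CI 1.10 to 2.04), on 47 Smad3-KO UMIs.

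Cd47, the signal against phagocytosis, was the other gene of the 9 with a ratio past 2-fold in neutrophil-like cells. It had 716 UMIs (454 CPM, CI 421 to 488) in Smad3-WT and 252 UMIs (192 CPM, CI 169 to 217) in Smad3-KO, a ratio of 0.424 (CI 0.365 to 0.490). In contrast to Cd274, the lower level was also seen within cluster 1, at 459 CPM (CI 423 to 497) and 174 CPM (CI 103 to 275), a ratio of 0.378 (CI 0.223 to 0.603). Ratios in clusters 2 and 8 were 0.601 and 0.455 with intervals that include 1, on 7 Smad3-WT UMIs in the first and 3 Smad3-KO UMIs in the second. Neutrophil-like cells thinned to 500 UMIs held a Cd47 UMI in 18.1% (Smad3-WT) and 8.43% (Smad3-KO) of cases. The median gene of the class had a ratio of 0.793, and after median-of-ratios scaling, which takes that shift out, the ratio of Cd47 was 0.538. Granule-gene cluster 12 had 350.2 CPM in Smad3-KO cells.
Not every class went this way. Cd47 (ENSMUSG00000055447, chr16:49800533-49915010, plus strand) was higher in Smad3-KO dendritic-like cells, at 322 and 538 CPM (ratio 1.67, CI 1.43 to 1.95), and in fibroblast-like cells, at 306 and 493 CPM (ratio 1.61, CI 1.26 to 2.07). For macrophage or monocyte-like cells it was 1.25 (CI 0.993 to 1.54) and for T cell-like cells 0.862 (CI 0.692 to 1.08). The dendritic-like ratio of Cd47 was 1.68 (CI 1.40 to 2.01) in cluster 7 and 1.12 (CI 0.803 to 1.57) in cluster 11.
Its receptor Sirpa (ENSMUSG00000037902, chr2:129592835-129632228, plus strand) was read at 247 CPM (CI 223 to 273) and 193 CPM (CI 169.9 to 218) in neutrophil-like cells, a ratio of 0.781 (CI 0.664 to 0.917), which is close to the median gene of the class. In macrophage or monocyte-like cells it stood at 336 and 479 CPM, a ratio of 1.42 (CI 1.15 to 1.75), and in dendritic-like cells at 298 and 163 CPM, a ratio of 0.549 (CI 0.427 to 0.697). Within macrophage or monocyte-like cells the ratio was 1.76 (CI 1.38 to 2.23) in cluster 3 and 0.952 (CI 0.599 to 1.44) in cluster 9. Sirpa belongs to a family of close copies, so reads could be divided between them.

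Pdcd1 and Ctla4 marked T cell-like cells. Pdcd1 (ENSMUSG00000026285, chr1:94038305-94052553, minus strand) had 0 UMIs in neutrophil-like cells of both libraries. A limit of 3 UMIs corresponds there to 1.90 CPM in Smad3-WT and 2.29 CPM in Smad3-KO. The exact interval for 0 UMIs reaches 2.34 and 2.81 CPM. Ctla4 (ENSMUSG00000026011, chr1:60887000-60915832, plus strand) had 0 and 2 UMIs in neutrophil-like cells. Both receptors were therefore at or under the limit that 3 UMIs set in this class.
In T cell-like cells, Pdcd1 had 53 UMIs in 21 of 59 Smad3-WT cells (208 CPM, CI 156 to 273) and 14 UMIs in 9 of 466 Smad3-KO cells (18.1 CPM, CI 9.91 to 30.4), a ratio of 0.0870 (CI 0.0446 to 0.159). Among cells with a UMI of Cd8a or Cd8b1, 17 of 27 Smad3-WT cells and 3 of 122 Smad3-KO cells held a Pdcd1 UMI, at 278 and 19.4 CPM. Havcr2 had 16 and 3 UMIs, a ratio of 0.0617 (CI 0.0115 to 0.216), and all 16 Smad3-WT UMIs lay in the cells with Cd8a or Cd8b1. Ctla4 stood at 157 CPM (CI 112 to 214) and 84.1 CPM (CI 64.9 to 107), a ratio of 0.535 (CI 0.355 to 0.814), and in Smad3-WT 35 of its 40 UMIs lay in cells without Cd8a and Cd8b1.
Of the 30 further inhibitory genes in the matrix, 17 had at least 20 UMIs in T cell-like cells, and 9 of these were at least 2-fold lower in Smad3-KO and 3 higher, with a median ratio of 0.418. Over all 5883 genes of this class with at least 20 UMIs, 12.2% were lower and 13% higher, and the median ratio was 0.937. Among the lower inhibitory genes, Lag3 had a ratio of 0.110 (CI 0.0606 to 0.190), Tigit of 0.134 (CI 0.0797 to 0.219) and Cd160 of 0.296 (CI 0.148 to 0.590). The others (Lgals3, Lilrb4a, Pilra, Thbs1, Cd80 and Entpd1) are also known from myeloid cells. Cd80 and Entpd1 stood at 55.0 and 70.8 CPM in Smad3-WT T cell-like cells, and at 257 and 832 CPM in Smad3-WT neutrophil-like cells. In the same 2 classes, Lilrb4a stood at 169 and 1178 CPM, Thbs1 at 1002 and 6739 CPM and Pilra at 86.5 and 157 CPM. Lgals3 stood at 1219 CPM in T cell-like, 877 CPM in neutrophil-like and 3153 CPM in macrophage or monocyte-like cells of Smad3-WT. The higher inhibitory genes were Cd200 (23.6 and 72.5 CPM), the inhibitory receptor Btla (3 and 31 UMIs) and its ligand Tnfrsf14 (0 and 26 UMIs), and Cd96 stood at 43.2 and 45.3 CPM. Of 8 costimulatory genes with at least 20 UMIs, 3 were lower, Tnfrsf9 (4-1BB, ratio 0.0907, CI 0.0605 to 0.133), Tnfrsf4 (0.294, CI 0.219 to 0.394) and Tnfrsf18 (0.341, CI 0.231 to 0.503), and 1 was higher, Cd40lg, the ligand of CD40 (2 and 48 UMIs). Ifng had 26 and 4 UMIs. Cd28 had a ratio of 1.11 (CI 0.757 to 1.65), Icos of 0.794 (CI 0.541 to 1.18), and Cd27, which is high in naive T cells, of 1.77 (CI 1.21 to 2.64). The 2 sets of cells also differed in depth, with medians of 3258 and 1348 UMIs. They differed in NK genes too, with Gzma at 1120.3 and 261 CPM, Prf1 at 303 and 22.0 CPM and Klrb1c at 177 and 9.06 CPM. Clustering again with seed 2 divided the T cell-like class. A part led by Gzma, which met 7 NK markers, drew 40 cells from Smad3-WT and 14 from Smad3-KO. The part that met no NK marker drew 21 and 455. With 30 principal components, the part led by Gzma drew 46 and 45 cells, and the part without NK markers 13 and 449. The class thus differed in make-up between the libraries. The 12 macrophage or monocyte markers stood at a median of 0.0978 of their own class's level in Smad3-WT T cell-like cells and at 0.0375 in Smad3-KO. The part of these differences in the ratios was not tested.
Over all cells the direction of Ctla4 was the opposite, at 4.60 and 17.4 CPM (ratio 3.78, CI 2.63 to 5.45), while T cell-like cells were 1.68% of Smad3-WT and 19.2% of Smad3-KO cells. With the Smad3-WT shares by class in both libraries, the ratio of Ctla4 was 0.490 and that of Pdcd1 was 0.110.

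**Figure D5:**
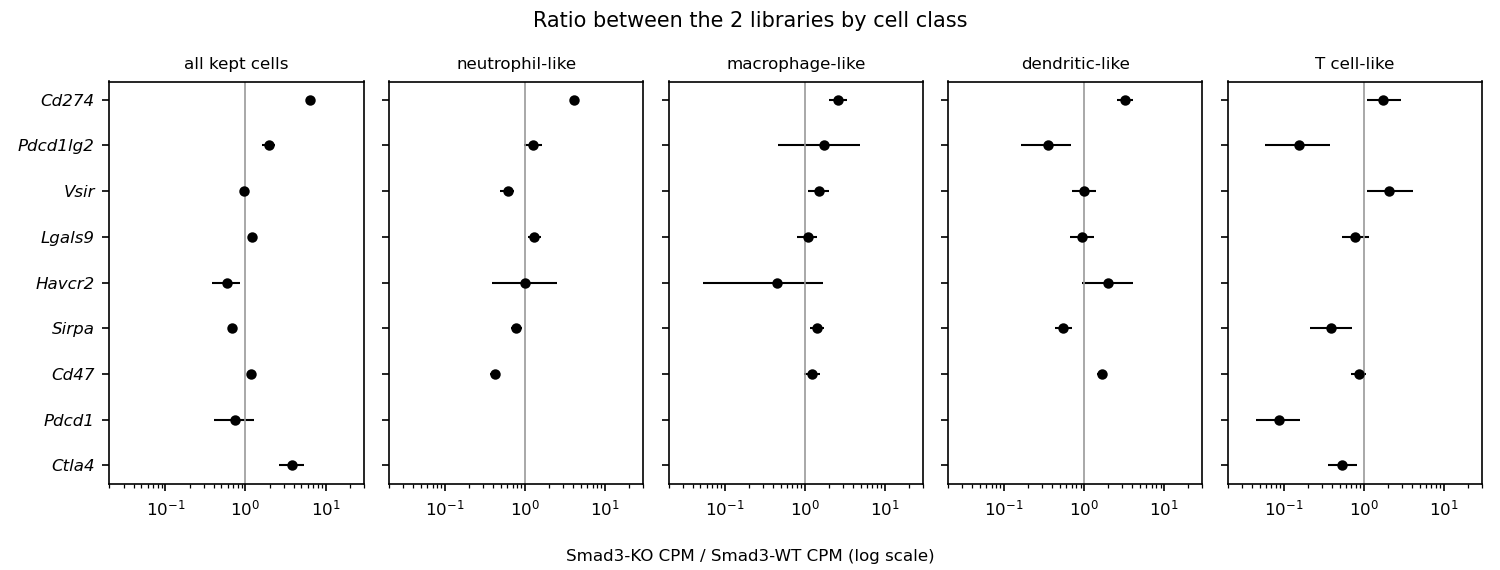
Ratio of the Smad3-KO to the Smad3-WT level (log axis) of each gene over all kept cells and in 4 classes, for genes with at least 20 UMIs over both libraries and at least 10 in Smad3-WT, where Smad3-KO had any. Points are ratios of CPM, bars are exact 95% intervals and the grey line marks 1. Cd274 lay above 1 in all 5 panels, Cd47 lay at 0.424 in neutrophil-like cells and at 1.67 in dendritic-like cells, and Pdcd1 lay at 0.0870 in T cell-like cells.

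The number of the 9 genes past 2-fold was read beside the share of all genes. It lay near that share over all cells and in neutrophil-like and macrophage or monocyte-like cells, but not for lower genes in T cell-like cells. Over all cells, all 9 had at least 20 UMIs, and 2 were at least 2-fold higher in Smad3-KO, Cd274 and Ctla4, where 16.3% of 12612 genes were, and 0 were at least 2-fold lower, where 15.4% were. In neutrophil-like cells, 7 of the 9 had at least 20 UMIs, and 1 was higher (Cd274) against 8.02% of 6008 genes and 1 lower (Cd47) against 18.4%. In macrophage or monocyte-like cells, 7 had at least 20 UMIs, and 1 was higher (Cd274) against 13.6% of 8784 genes and 1 lower (Havcr2, 0.453 with a CI of 0.0539 to 1.69, on 2 Smad3-KO UMIs) against 14.4%. In T cell-like cells, 8 had at least 20 UMIs. Of these, 3 were lower (Pdcd1lg2, Sirpa and Pdcd1) against 12.2% of 5883 genes, and 1 was higher (Vsir) against 13%. The make-up of that class differed between the libraries, and its part in this number was not tested.
The wider pathway was read from 3 lists. Of all 6008 genes with at least 20 UMIs in neutrophil-like cells, 8.02% were at least 2-fold higher in Smad3-KO and 18.4% were lower. Of 30 further inhibitory genes in the matrix, 16 had at least 20 UMIs in neutrophil-like cells, of which 1 was at least 2-fold higher in Smad3-KO and 4 were lower, with a median ratio of 0.649 beside 0.793 over all genes of the class. The 2 ligands shared by CD28 and CTLA-4 lay in opposite directions, with Cd80 at 257 and 48.1 CPM (ratio 0.187, CI 0.141 to 0.244) and Cd86 at 10.8 and 57.2 CPM (ratio 5.31, CI 3.11 to 9.59). Of the lower genes, Hmgb1, a nuclear protein and proposed ligand of TIM-3, had a ratio of 0.438, the inhibitory receptor Cd200r1 of 0.401, and Nt5e, which makes adenosine, of 0.249 on 6 Smad3-KO UMIs. Of 14 costimulatory genes, 4 had at least 20 UMIs, with Tnfsf9, the ligand of 4-1BB, higher (10 and 45 UMIs, ratio 5.42, CI 2.69 to 12.1) and Icosl lower (ratio 0.391, CI 0.238 to 0.621).
Of 13 genes of PD-L1 induction and stability, 11 had at least 20 UMIs in neutrophil-like cells, and 2 of these were higher and 1 lower around a median ratio of 1.15. Over all genes of the class, 8.02% were higher and 18.4% lower, and the median ratio was 0.793. Irf1, a transcription factor downstream of interferon-γ, stood at 182 and 447 CPM (ratio 2.46, CI 2.13 to 2.84), and Nfkb1, a subunit of NF-kB, at 80.5 and 166 CPM (ratio 2.07, CI 1.65 to 2.59). Cmtm6, which keeps PD-L1 protein from degradation, was lower, at 221 and 77.8 CPM (ratio 0.353, CI 0.280 to 0.441). Stat3 (ratio 1.23), Jak1 (1.81) and Hif1a (1.03) stayed within 2-fold.
The 3 genes past 2-fold were also read by cluster. In cluster 1, where Cd274 did not differ beyond counting error, Irf1 stood at 183 CPM (CI 161 to 208) in Smad3-WT and 589 CPM (CI 450.5 to 756) in Smad3-KO. In cluster 2, Irf1 stood at 322 CPM (CI 139 to 635) in Smad3-WT, on 8 UMIs, and at 480 CPM (CI 439 to 525) in Smad3-KO. Nfkb1 was at 86.5 CPM (CI 71.4 to 104) in Smad3-WT cells of cluster 1 and at 48.3 CPM (CI 15.7 to 113), on 5 UMIs, in Smad3-KO cells. It reached 196 CPM (CI 169.6 to 225) in the Smad3-KO cells of cluster 2, where Smad3-WT had 1 UMI. Cmtm6 was at 239 and 299 CPM in cluster 1. In cluster 2 it was at 40.3 CPM (CI 1.02 to 224), on 1 UMI, in Smad3-WT and at 45.5 CPM (CI 33.4 to 60.5) in Smad3-KO.

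Genes most like each of the 9 were sought by Pearson correlation of log2(CPM + 10) among 7345 genes. The correlation ran over 12 sums of a class in a library and is a description, since the sums share libraries and may share free RNA. Nearest to Cd274 were Tnfrsf1b (0.976), the second receptor of TNF, Acod1 (0.973), which makes itaconate, and Cflar (0.971), an inhibitor of caspase-8. Tnfrsf1b stood at 284 CPM in Smad3-WT and 386 CPM in Smad3-KO cells of cluster 1. In cluster 2 it stood at 282 CPM (CI 113 to 581, on 7 UMIs) in Smad3-WT and at 1581 CPM in Smad3-KO cells. Nearest to Sirpa were Hacd4 (0.945), its relative Sirpb1a (0.942) and Irf2bp2 (0.931), and nearest to Ctla4 were the lymphocyte genes Gzma (0.989), Nkg7 (0.975) and Il2rb (0.972). The nearest gene reached 0.940 for Pdcd1lg2 (Cnppd1), 0.900 for Vsir (Myo1f), 0.882 for Lgals9 (Xaf1), 0.871 for Cd47 (Hnrnpul1) and 0.861 for Havcr2 (Sugt1).

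Averages of 13 clusters over all barcodes were deposited as well, scaled to 1311 UMIs and pooled over the libraries. In these averages, Cd274 was highest in deposited cluster 3 (4.02) and cluster 4 (1.64), which met too few markers of any class for a name but had S100a8 at 27.2 and 33.7, followed by neutrophil cluster 1 (0.633). It was lowest in the carcinoma-led clusters 2 (0.0311) and 11 (0.00937). Pdcd1lg2 was also highest in clusters 3 (0.208) and 4 (0.155). Pdcd1 (0.0799) and Ctla4 (0.139) were highest in the T cell-led cluster 9, Sirpa (0.762) in the macrophage-led cluster 12, and Cd47 (0.779) in the dendritic-led cluster 13. Cd47 was at 0.211 in cluster 3, where Cd274 was highest, and at 0.524 in neutrophil cluster 1.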

How the data were processed

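CD11b+Ly6G+ cells of pooled LLC tumors were profiled as 1 Smad3-WT and 1 Smad3-KO library with a 5′ kit. The matrix holds raw counts of UMIs per gene and barcode, deposited by the authors after Cell Ranger on mm10, per the labels. The deposited library averages are a signal, UMIs summed over a library and scaled to 1311 UMIs. Barcode suffixes were matched to libraries by that identity, with a largest difference of 4.91e-09 for Smad3-KO and 3.58e-08 for Smad3-WT. The deposited cluster averages were made by the authors in the same way for 13 clusters; their deposited fold changes and p-values between clusters were not used.

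Barcodes were kept when they had 200 or more genes, 500 to 20000 UMIs (limits excluded) and a mitochondrial share under 10%, and the upper limit removed 382 Smad3-WT and 0 Smad3-KO barcodes. Depth was 23951400 and 4214290 UMIs before filtering. Clustering used scanpy 1.11.5 with igraph 0.11.9 (2000 variable genes, 100 principal components, 15 neighbours, Louvain at resolution 1.0, seed 1). A cluster took a class name when 3 or more of its markers reached 10% of cells and 2 times the level elsewhere. No doublets were removed. Sums of counts carry exact Poisson intervals, ratios exact conditional binomial intervals and shares Clopper-Pearson intervals. A separate limit of 3 UMIs was set for genes at or near 0. The intervals were tested on simulated Poisson counts, which is the model they assume, so the test does not cover spread between cells or libraries. Intervals came from scipy 1.17.1 and figures from matplotlib 3.10.9, under Python 3.11.15 with pandas 2.3.3 and numpy 2.4.6. Named are the 9 genes, the genes of the 3 pathway lists, class markers and, for each of the 9 with at least 100 UMIs, the 3 most alike genes with at least 200 UMIs; genes that lead a cluster were named after its cells were clustered. The genes and lists were chosen with earlier results of these data known. Promoters came from RefSeq (GRCm38.p6) for 8 of the 9 genes, and the letters of the IRF and NF-kB motifs were settled after a first search.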

Additional observations from a re-analysis of the deposited data

Results flagged for a closer look

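Cell classes differed in direction for Vsir, Sirpa and Cd47, each with counting intervals on opposite sides of 1, and these differences between classes were not tested. Vsir, with a ratio of 0.604 in neutrophil-like cells, had ratios of 1.51 for macrophage or monocyte-like and 2.06 for T cell-like cells, on 12 Smad3-WT UMIs in the latter. With clusters weighted alike, the neutrophil-like ratio of Vsir was 0.834. The T cell-like class also differed in make-up between the libraries. Sirpa, at 0.781 in neutrophil-like cells, had 1.42 in macrophage or monocyte-like cells, with 1.76 in their cluster 3 and 0.952 (CI 0.599 to 1.44) in their cluster 9. The median gene had a ratio of 0.793 in neutrophil-like and 1.12 in macrophage or monocyte-like cells. After median-of-ratios scaling, Sirpa in neutrophil-like cells was at 0.992, so its direction there was that of the median gene. Cd47, at 0.424 in neutrophil-like cells, had 1.67 in dendritic-like and 1.61 in fibroblast-like cells. Its dendritic-like ratio was 1.68 in cluster 7, whose name depended on the clustering, and 1.12 (CI 0.803 to 1.57) in cluster 11.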

How the results depend on the processing

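No paired analysis was possible because each genotype had 1 library. The Cd274 ratio over all cells, 6.31, stayed above 2 under the 9 alternatives run and moved to 11.2 without a quality filter, 11.2 with the MetaCell filter, 11.4 without the upper limit on UMIs, 3.31 both as a mean of per-cell CPM and with cells thinned to 500 UMIs, and 7.12 in cells with a UMI of S100a9, S100a8, Csf3r or Il1rn. In neutrophil-like cells, 4.12 moved to 5.24 under median-of-ratios scaling (a log2 shift of -0.35 in the median gene), 4.60 without the granule-gene cluster and 1.60 with clusters weighted alike, and the other 12 alternatives lay inside its interval. Median-of-ratios scaling left 1 of the 9 genes, Cd274, past 2-fold in neutrophil-like cells, in place of 2. With clusters weighted alike the number was again 2, but these were Havcr2 and Cd47. Cd47 lay between 0.369 and 0.538 under all 15 alternatives there. Over all cells, Vsir, Sirpa and Cd47 each changed direction under 3 alternatives, Havcr2 under 1 and Pdcd1 under 5, while in neutrophil-like cells Havcr2 did under 7 of 15 (0.875 to 2.75) and Pdcd1lg2 under 1 (0.721 with clusters weighted alike). Leaving out barcodes found in both libraries, and weighting clusters alike, were chosen after seeing the data. The T cell-like comparison rests on 59 Smad3-WT cells and the macrophage or monocyte-like one on 94 Smad3-KO cells, and intervals there cover counting error only.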

Other observations

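In macrophage or monocyte-like cells, 18 of 30 inhibitory genes in the matrix had at least 20 UMIs, of which 7 were at least 2-fold lower in Smad3-KO and 1, Cd200, was higher on 16 Smad3-KO UMIs, beside 14.4% and 13.6% of all genes of the class. Thrombospondin-1 (Thbs1), a ligand of CD47, stood at 4088 and 816 CPM (ratio 0.200, CI 0.171 to 0.232), beside 6739 and 4134 CPM in neutrophil-like cells, and the CD28 and CTLA-4 ligands Cd80 (ratio 0.156, CI 0.0188 to 0.571) and Cd86 (ratio 0.344, CI 0.125 to 0.757) were lower on 2 and 6 Smad3-KO UMIs. The inhibitory receptors Pilra (ratio 0.218, CI 0.0936 to 0.431) and Lilrb4a (ratio 0.453, CI 0.313 to 0.637) were also lower. In neutrophil-like cells Cd86 lay in the other direction, with a ratio of 5.31. The 94 Smad3-KO cells set the counting error of these values, and UMIs of neutrophil markers were present in the class, with a median marker quotient of 0.0711.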
